A study of Mus musculus with 6 samples.

Results

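The 35 genes described here are regulators of chondrocytes and components of cartilage matrix, chosen by symbol as the Sox trio, the cartilage collagens and proteoglycans, the growth plate signals, and the enzymes and transporters that sulfate cartilage glycosaminoglycans. All 35 were found among the 56691 genes counted, and 27 of them were among the 15673 genes with enough counts to be tested. The counts came from bulk RNA-seq of the secondary palate of C57BL/6J mouse embryos at E14.0, an age around which the palatal shelves rise above the tongue. Anterior and posterior 1/3 regions of the palatal shelves were microdissected, and each region was measured in 3 libraries, with no treatment or mutation in either. The question the comparison addresses is which genes distinguish the anterior, future hard palate from the posterior palate. The study describes the bulk samples as biologically independent. Whether a library came from a single embryo or from pooled embryos, and whether litters were separate, was not given for them, so p-values measure the spread between these libraries.

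Cartilage is laid down by chondrocytes under the transcription factor SOX9, which is assisted by the related factors SOX5 and SOX6 on the enhancers of matrix genes. Early chondrocytes secrete fibrils of type II collagen that carry collagens IX and XI, together with aggrecan, a proteoglycan that binds water through its sulfated side chains. Later chondrocytes of the growth plate enlarge and make type X collagen. Indian hedgehog and parathyroid hormone-related protein are signals of the growth plate. The palate itself ossifies mainly without a cartilage template, whereas cartilage of the cranial base and pterygoid region lies near the posterior shelves.

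Library depth ranged from 11378736 to 15172733 reverse-stranded counts. Levels are given in CPM, counts scaled to library sizes that were normalised by the TMM method, with libraries in the order anterior 1, 2 and 3, then posterior 1, 2 and 3. A count of 0 allows up to 3 counts, or 0.205 to 0.259 CPM, for counting error only. Markers of palatal mesenchyme were present in every library, with Osr2 at 67.7 CPM or more and Pax9 at 97.5 CPM or more. Posterior libraries 2 and 3 stood apart, with 6.12% and 5.94% of reads mapped to several places and 0.973% and 1.14% mitochondrial counts, against 8.45% to 8.77% and 2.70% to 2.97% in the other 4. Both are posterior, which leaves no comparison of region inside that group. A second fit carried a library-group term, which took the region difference from posterior library 1 against the anterior libraries, and its values are given beside a number of genes. In that fit the posterior arm of the region difference is a single library, assumed to vary like the other libraries, from which the spread was estimated. In bulk tissue, fewer cells of a type and less RNA per cell cannot be told apart, and the same holds for more.

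Of the 27 cartilage genes tested, 7 passed at an adjusted p below 0.05 with the posterior palate higher, and 0 with the anterior palate higher (edgeR's quasi-likelihood test, Benjamini-Hochberg adjustment over all genes). The 7 were Col2a1, Col9a1, Col9a3, Hapln1, Nkx3-2, Trps1 and Susd5. In GENCODE M21 (GRCm38), whose coordinates may differ from those of the annotation behind the counts, Col2a1 lies at chr15:97975602-98004695, Trps1 at chr15:50654752-50890463 on the same chromosome, and Nkx3-2 at chr5:41761483-41764501, all on the minus strand. Col9a1 lies at chr1:24177610-24252684, Col9a3 at chr2:180597790-180622189, Hapln1 at chr13:89539796-89611652 and Susd5 at chr9:114057140-114098728, all on the plus strand. The 7 genes made up 25.9% of the cartilage genes tested, against 7.46% of all genes called in either direction, 4.87% called in the posterior and 2.59% in the anterior direction. At an unadjusted p below 0.05, 14 cartilage genes were higher in the posterior and 2 in the anterior palate, against 2486 and 1460 of all 15673 genes. DESeq2 called 10 in the posterior and 1 in the anterior direction, beside 8.56% and 4.06% of all genes, and limma-voom 7 and 0, beside 4.28% and 2.57%. In 13 of the 27 the posterior libraries all lay above the anterior ones, against 14.7% of all genes, and in 2 they all lay below, against 13.3% of all genes. The median log2 fold change, posterior over anterior, was 0.43 over the 27 genes and -0.0040 over all genes tested. Nkx3-2 and Comp reached 10 counts in posterior libraries only, so their place among the tested genes depended on the posterior level.

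**Figure D1:**
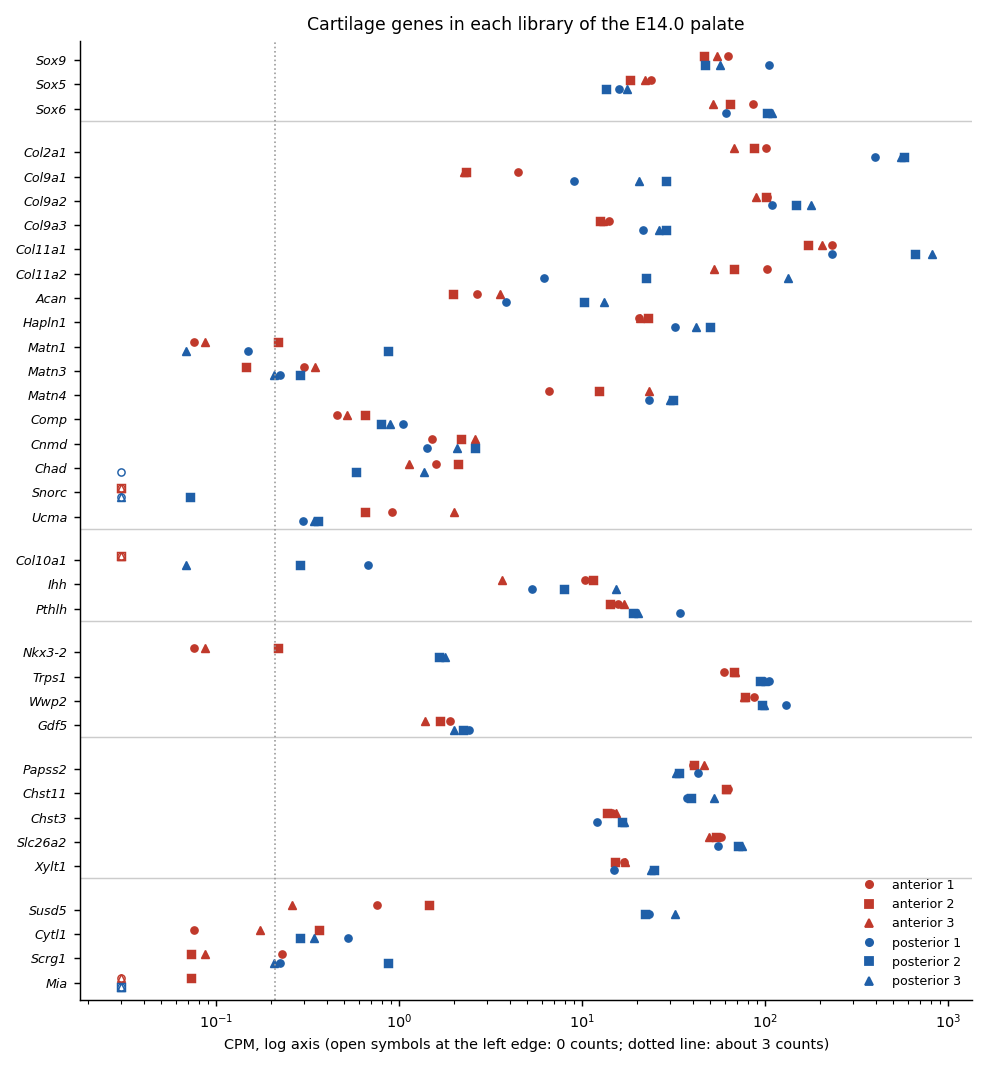
CPM (log axis) of the 35 cartilage genes in each library, grouped by role, with anterior libraries in red and posterior libraries in blue; open symbols mark 0 counts and the dotted line about 3 counts. Col2a1, Susd5 and Nkx3-2 show the widest gaps between the regions among the genes called, whereas Col11a2 spreads from 6.20 to 133 CPM within the posterior libraries.

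Cell type markers differed between the regions beside these genes. All 10 skeletal muscle genes listed (Myod1, Myog, Myf5, Actc1, Acta1, Myh3, Tnnt1, Tnni1, Ttn and Des) were higher in the posterior palate, with a summed level of 640 to 1118 CPM against 13.9 to 17.5 CPM in the anterior. Osteoblast genes summed to 1996 to 3625 CPM in the anterior libraries and to 293, 509 and 1853 CPM in the posterior ones, and of the 7 tested 2 were called, Dmp1 and Ifitm5, both higher in the anterior palate. At an unadjusted p below 0.05 there were 5, all in the anterior direction, where DESeq2 called 5 and the library-group term 7. The osteoblast gene Bglap was at 0 in 4 of the 6 libraries and had at most 3 counts. Of 10 chondrocyte genes listed, 9 were tested and 4 were called, all higher in the posterior palate, and their sum was 306 to 411 CPM against 685 to 1021 CPM. All 10 of those are members of the gene set described here, so their sum is no separate observation. Of the 4 tendon genes, Kera and Mkx were higher in the posterior and Tnmd in the anterior palate, and the sum was 38.1 to 47.8 CPM against 132 to 147 CPM. Neuronal genes summed to 238 CPM in posterior library 2 and to 16.4 to 39.3 CPM in the others. Among epithelial genes Trp63 was called higher in the anterior palate, among glial genes Erbb3 in the posterior, and among palatal mesenchyme genes Twist1 and Pdgfra in the posterior and Prrx1 in the anterior palate. No neuronal, endothelial or red cell gene was called by edgeR or limma-voom; 2, 1 and 1 of them had an unadjusted p below 0.05, and DESeq2 called 1 neuronal and 1 endothelial gene. The part of these cell types in the differences between cartilage genes was not tested.

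The Sox trio was present in every library and none of its 3 genes passed the test. DESeq2 and limma-voom also called 0 of the 3, and 1, Sox5, had an unadjusted p below 0.05. Sox9, the factor required for chondrocyte commitment, was at 62.7, 46.2 and 54.5 CPM in the anterior libraries and at 105, 46.7 and 56.2 CPM in the posterior ones. Only posterior library 1 stood above the anterior range. Anterior libraries averaged 54.5 ± 8.25 CPM (SD, n = 3) and posterior libraries 69.4 ± 31.4 CPM, a log2 difference of 0.35 (standard error 0.29, adjusted p = 0.470). With the library-group term it was 0.95 (adjusted p = 0.00924; range over the 17 alternatives 0.00924 to 0.747), and without posterior library 1 it was -0.076, so this library decided the sign. Pthlh and Wwp2, described further on, were also highest in posterior library 1. The epithelial keratin gene Krt14 was highest there too, at 7642 counts against 3546 to 4525 in the others. The 7 epithelial genes, Krt14 included, summed to 1780 CPM against 1068 to 1652 CPM. Their median log2 ratio to the anterior mean was only 0.12 in posterior library 1. The part of epithelium in these levels was not tested.

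Sox5 was at 23.6, 18.1 and 22.1 CPM in the anterior libraries and at 15.9, 13.4 and 17.5 CPM in the posterior ones. The regions did not overlap, with the anterior higher, but the difference did not pass the test (log2 -0.45, standard error 0.16, adjusted p = 0.133). With the length correction it was -0.77, and with the replicate block added -0.79, where Sox5 was called (adjusted p = 0.0317; range over the 17 alternatives 0.0317 to 0.384). Sox6 was at 85.9, 63.8 and 52.0 CPM in the anterior and at 61.0, 102 and 109 CPM in the posterior libraries. Posterior libraries 2 and 3 lay above every anterior library and posterior library 1 lay among them (log2 0.43, standard error 0.25, adjusted p = 0.323). Without posterior library 1 Sox6 was called at 0.65 (adjusted p = 0.0167), in a fit that called 46.4% of all genes tested, and with the library-group term it was -0.14. Sox9 and Sox6 thus had their high values in different posterior libraries.

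Levels of different genes are compared per kilobase of exon length, as CPM per kilobase. Sox9 stood at 8.57 to 9.23 times Sox5 in the anterior libraries and at 23.0, 12.1 and 11.1 times in the posterior ones. The ratio of Sox9 to Sox6 was 2.60 to 3.76 in the anterior libraries and 6.18, 1.64 and 1.85 in the posterior ones, so posterior library 1 was above and posterior libraries 2 and 3 below the anterior range.

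**Figure D2:**
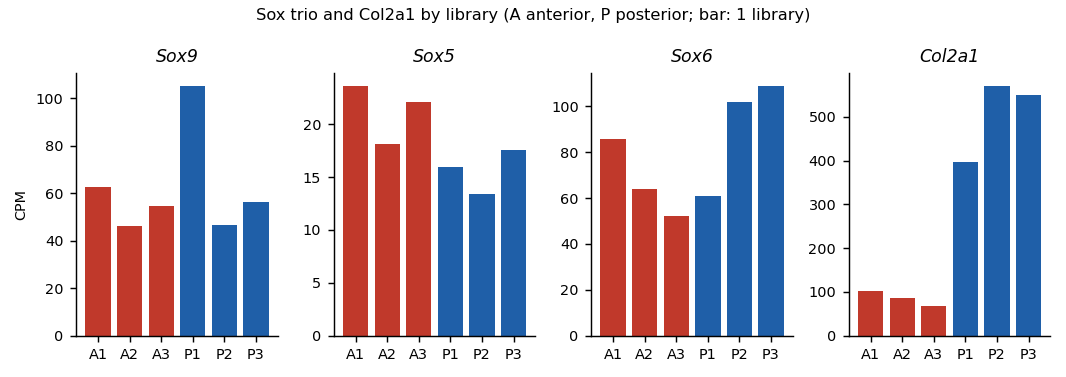
CPM of Sox9, Sox5, Sox6 and Col2a1 in each library, 1 bar per library, with separate vertical axes that start at 0. Col2a1 was at 397 to 571 CPM in the posterior libraries and at 67.6 to 101 CPM in the anterior ones, whereas Sox9 and Sox6 overlapped between the regions.

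Among the 16 early matrix genes, 12 were tested and 4 were called, all higher in the posterior palate, beside the 4.87% of all genes called in that direction. Over the 12, log2 fold changes had a median of 0.95, and 9 were positive. Set against the anterior mean in each posterior library, their median log2 ratio was 0.54 in library 1, 1.14 in library 2 and 0.99 in library 3, while the median of all genes tested was -5.83e-05, -0.014 and -0.013. The Sox trio gave medians of -0.14, -0.22 and 0.045 in the same libraries.

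Col2a1, which encodes the main fibrillar collagen of cartilage, was at 101, 86.7 and 67.6 CPM in the anterior libraries and at 397, 571 and 550 CPM in the posterior ones. Every posterior library lay above every anterior one. Anterior libraries averaged 85.2 ± 16.8 CPM (SD, n = 3) and posterior libraries 506 ± 94.9 CPM, a 5.94-fold difference (log2 2.57, standard error 0.20, adjusted p = 0.000517). The call held in all 17 alternatives, with log2 values of 2.43 to 2.72 when each library was left out.

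Type IX collagen, assembled from the products of Col9a1, Col9a2 and Col9a3, is carried on the surface of the type II fibril. Col9a1 was at 4.47, 2.32 and 2.25 CPM in the anterior libraries and at 8.97, 28.5 and 20.3 CPM in the posterior ones. All posterior libraries were higher, by 6.37-fold on the fitted mean (log2 2.67, standard error 0.47, adjusted p = 0.0147), and the difference was largest in posterior library 2. The call was lost without anterior library 2, anterior library 3 or posterior library 2, with log2 values of 2.28 to 3.07 over all libraries left out in turn. With the library-group term the log2 difference was 1.56 (adjusted p = 0.0390; range over the 17 alternatives 8.15e-08 to 0.0809).

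Col9a3 was at 13.9, 12.5 and 13.0 CPM in the anterior and at 21.4, 28.7 and 26.3 CPM in the posterior libraries. The regions did not overlap, and the difference was 1.93-fold (log2 0.95, standard error 0.14, adjusted p = 0.00729), with the call lost without anterior library 2, where the log2 value was 0.91. Col9a2 was at 102, 101 and 89.2 CPM in the anterior and at 109, 147 and 178 CPM in the posterior libraries. It also did not overlap but did not pass the test (log2 0.57, standard error 0.17, adjusted p = 0.101). DESeq2 called it (adjusted p = 0.0323; range over the 17 alternatives 0.000567 to 0.553). With the library-group term the log2 difference of Col9a2 was 0.16. Per kilobase, Col9a2 exceeded Col9a1 by 37.4 to 71.3 times in the anterior libraries and by 19.8, 8.46 and 14.3 times in the posterior ones, so these 2 genes were closer in level in the posterior libraries.

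Type XI collagen shares its fibril with type II, and its chains come from Col11a1 and Col11a2 with a chain from Col2a1. Col11a1 was at 231, 170 and 204 CPM in the anterior libraries and at 230, 657 and 812 CPM in the posterior ones. Posterior library 1 lay within the anterior range and posterior libraries 2 and 3 far above it (log2 1.49, standard error 0.41, adjusted p = 0.0750). DESeq2 called it (adjusted p = 0.0384), whereas with the library-group term the log2 difference was 0.19, and the adjusted p ranged from 4.02e-05 to 0.615 over the 17 alternatives.

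Col11a2 was at 102, 67.3 and 52.6 CPM in the anterior libraries and at 6.20, 22.3 and 133 CPM in the posterior ones. Posterior library 1 was the lowest of all libraries and posterior library 3 the highest, and the regional difference was not called (log2 -0.46, standard error 0.89, adjusted p = 0.760). Its log2 value ranged from -2.37 to 0.076 when single libraries were left out. Per kilobase, Col11a1 stood at 1.22 to 2.10 times Col11a2 in the anterior libraries and at 20.0, 15.9 and 3.29 times in the posterior ones.

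**Figure D3:**
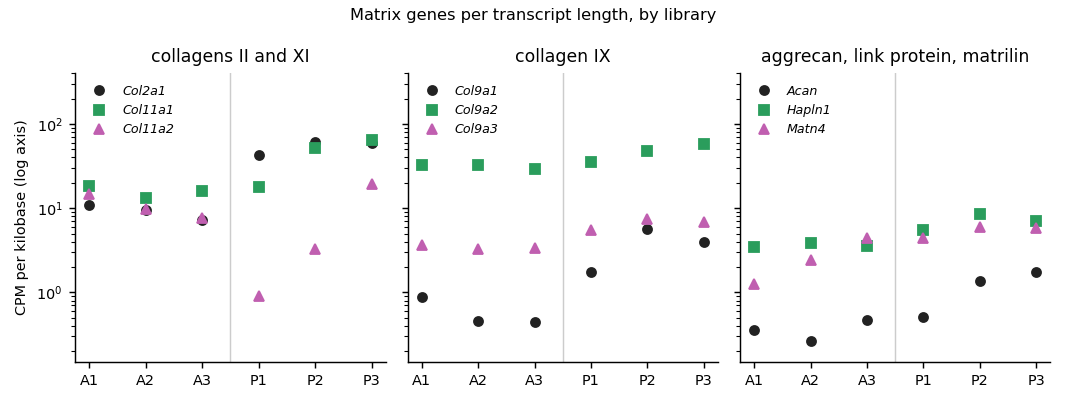
CPM per kilobase of exon length (log axis) of matrix genes in anterior (A) and posterior (P) libraries, 1 symbol per library and gene. Col2a1 was below Col9a2 in every anterior library, and Col11a2 ran from 0.902 to 19.3 CPM per kilobase across the posterior libraries.

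Osteoblast genes were also lowest in posterior library 1. Ibsp, which encodes bone sialoprotein, was at 2687, 2018 and 1400 CPM in the anterior libraries and at 17.9, 142 and 1277 CPM in the posterior ones. Phex, an endopeptidase gene of bone cells, was at 42.5, 27.9 and 22.1 CPM and at 0.971, 5.62 and 29.4 CPM. Ibsp, Phex and Col11a2 were each highest in anterior library 1 and lowest in anterior library 3 within that region, and lowest of all in posterior library 1, whereas Col2a1 in that library was above every anterior library. Chad, which encodes the cell-binding matrix protein chondroadherin, was at 21, 29 and 13 counts in the anterior libraries and at 0, 8 and 20 counts in the posterior ones (log2 -1.28, standard error 0.79, adjusted p = 0.340). Its log2 value was -2.43 without posterior library 3 and -0.72 without posterior library 1. With the library-group term, which sets the 0 counts of posterior library 1 against the anterior libraries, Chad was called (adjusted p = 0.0225; range over 16 alternatives 0.0225 to 0.612), and no fold is given for a fit on 0 counts. The part of osteoblasts in the levels of Col11a2 and Chad was not tested.

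**Figure D4:**
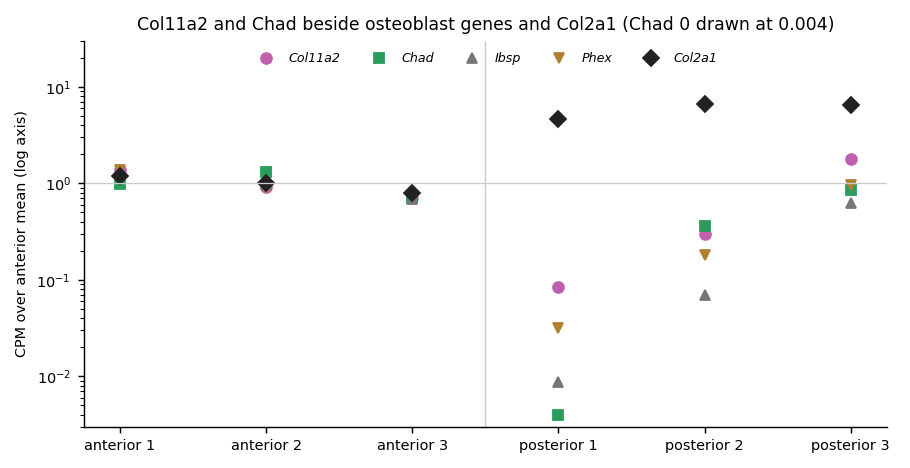
CPM of Col11a2, Chad, Ibsp, Phex and Col2a1 in each library divided by the gene's anterior mean (log axis), with the Chad count of 0 in posterior library 1 drawn at 0.004. Col11a2, Chad, Ibsp and Phex lie lowest in posterior library 1 and higher in posterior library 3, while Col2a1 lies above 1 in all posterior libraries.

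Acan, which encodes aggrecan, was at 2.65, 1.96 and 3.54 CPM in the anterior libraries and at 3.81, 10.2 and 13.2 CPM in the posterior ones. The regions did not overlap, yet posterior library 1 was close to the highest anterior library and the difference did not pass the test (log2 1.75, standard error 0.46, adjusted p = 0.0658). DESeq2 called it (adjusted p = 0.00323; range over the 17 alternatives 0.000392 to 0.495), and with the library-group term the log2 difference was 0.50. Hapln1, which encodes the link protein that ties aggrecan to hyaluronan, was at 20.4, 22.7 and 20.7 CPM in the anterior and at 32.1, 49.7 and 42.0 CPM in the posterior libraries. It was 1.94-fold higher in the posterior palate (log2 0.95, standard error 0.17, adjusted p = 0.0147) with no overlap. Leaving out any library other than posterior library 1 ended this call, with an adjusted p of at most 0.0787 and log2 values between 0.80 and 1.11 over all 6 libraries left out in turn.

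The matrilins are adaptor proteins of the matrix. Matn4 was at 6.59, 12.4 and 23.1 CPM in the anterior and at 23.1, 31.3 and 30.2 CPM in the posterior libraries, where anterior library 3 reached the level of posterior library 1 (log2 1.01, standard error 0.39, adjusted p = 0.165). Without anterior library 3 it was called at 1.56 (adjusted p = 0.0428; range over the 17 alternatives 0.0377 to 0.483), and without anterior library 1 the log2 value was 0.67. It was also called without posterior library 1 and without the low-count filter. Matn1 had 1, 3 and 1 counts in the anterior and 2, 12 and 1 in the posterior libraries, and Matn3 had 2 to 4 in all of them, so neither was tested. Scrg1, a gene first named for a brain disease and also expressed in cartilage, likewise had 12 counts in posterior library 2 and 1 to 3 in the others. Neuronal genes were highest in that library, as given above, and their part in these counts was not tested.

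Comp, which encodes cartilage oligomeric matrix protein, had 6 to 9 counts in the anterior and 11 to 14 in the posterior libraries (log2 0.73, standard error 0.33, adjusted p = 0.213). Cnmd, which encodes the anti-angiogenic protein chondromodulin, had 20, 30 and 30 counts in the anterior and 19, 36 and 30 in the posterior libraries (log2 -0.044, standard error 0.33, adjusted p = 0.941). Ucma, a gene of immature and resting-zone chondrocytes, had 12, 9 and 23 counts in the anterior and 4, 5 and 5 in the posterior libraries, with every anterior library higher. It was tested only without the low-count filter (log2 -1.78, adjusted p = 0.0556). Snorc, which encodes a membrane proteoglycan of cartilage, had 1 count in all 6 libraries together.

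Of the 3 growth plate genes, 2 were tested and 0 were called by edgeR, DESeq2 or limma-voom, with 1 at an unadjusted p below 0.05. Col10a1, the marker collagen of hypertrophic chondrocytes, had 0 counts in every anterior library and 9, 4 and 1 in the posterior ones. At this depth a gene with 0 counts may still be present at up to 0.259 CPM, and Col10a1 was tested only without the low-count filter (adjusted p = 0.0590). Ihh, which encodes the hedgehog ligand of prehypertrophic chondrocytes, was at 10.3, 11.5 and 3.63 CPM in the anterior libraries and at 5.30, 7.93 and 15.2 CPM in the posterior ones. The regions overlapped and the library-group term turned the sign, from 0.16 (standard error 0.49, adjusted p = 0.851) to -0.68. Ihh was highest in posterior library 3 and lowest in anterior library 3.

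Pthlh, which encodes parathyroid hormone-related protein and is made by epithelia as well as by cartilage, was at 15.7, 14.1 and 16.9 CPM in the anterior and at 34.0, 19.0 and 20.3 CPM in the posterior libraries. The regions did not overlap, and posterior library 1 stood above the other posterior libraries (log2 0.65, standard error 0.23, adjusted p = 0.140). Without posterior library 1 the log2 difference was 0.34 (adjusted p = 0.0459), in a fit that called 46.4% of all genes tested. With the library-group term the log2 difference was 1.13 (adjusted p = 0.00225; range over the 17 alternatives 0.00225 to 0.383).

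Col2a1 was 2.22, 2.75 and 2.69 above the anterior mean on the log2 scale in posterior libraries 1, 2 and 3, so each of them lay above it. Col11a1 gave 0.19, 1.70 and 2.01 and Acan 0.49, 1.90 and 2.28, with posterior library 1 near the anterior level. Sox9 gave 0.95, -0.22 and 0.045, with posterior library 1 the highest. Per kilobase, Col2a1 stood at 0.555 to 0.839 times Sox9 in the anterior libraries and at 1.69, 5.47 and 4.38 times in the posterior ones, so every posterior library had more Col2a1 for its Sox9 than any anterior one.

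Nkx3-2, a homeobox repressor gene that acts in early chondrogenesis and in the jaw joint, had 1, 3 and 1 counts in the anterior libraries and 22, 23 and 26 in the posterior ones. The posterior values, at 1.64 to 1.78 CPM, lay close together. The pooled ratio of posterior to anterior was 13.1, with a 95% counting interval from 5.35 to 41.5 (log2 3.62, standard error 0.42, adjusted p = 0.00276). The fitted fold rests on 5 anterior counts in all, and Nkx3-2 was no longer tested when any posterior library was left out. In the 13 alternatives in which it was tested it was called.

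Trps1, which encodes a GATA-type repressor of chondrocyte maturation, was at 59.1, 67.3 and 68.0 CPM in the anterior and at 104, 92.9 and 100.1 CPM in the posterior libraries. All posterior libraries were higher, by 1.53-fold (log2 0.61, standard error 0.098, adjusted p = 0.00994). The call was lost with the correction for transcript length (log2 0.32, adjusted p = 0.306; range over the 17 alternatives 1.79e-05 to 0.397) and without anterior library 1 or 2.

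Wwp2, a ubiquitin ligase gene expressed under SOX9 in cartilage, was at 86.9, 77.1 and 76.7 CPM in the anterior and at 130, 96.4 and 97.7 CPM in the posterior libraries. The regions did not overlap but the difference did not pass the test (log2 0.43, standard error 0.14, adjusted p = 0.111), and it was called with the library-group term (log2 0.69, adjusted p = 0.00271; range over the 17 alternatives 0.00271 to 0.428). With the length correction the log2 difference of Wwp2 was 0.27 (adjusted p = 0.428). Without posterior library 1 it was 0.28 (adjusted p = 0.0142), in a fit that called 46.4% of all genes tested. Gdf5, which encodes a growth factor of developing joints, had 16 to 25 counts in the anterior and 29 to 32 in the posterior libraries (log2 0.41, standard error 0.25, adjusted p = 0.330).

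**Figure D5:**
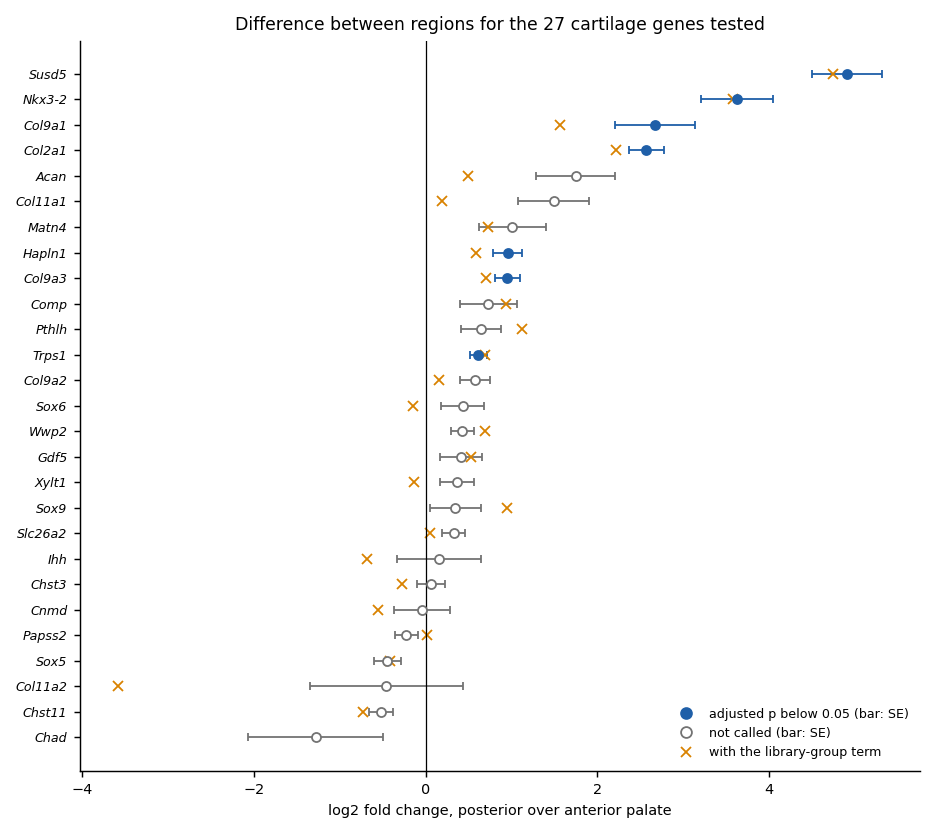
Log2 fold change, posterior over anterior, of the 27 cartilage genes tested, with bars for the standard error, filled symbols for an adjusted p below 0.05 and crosses for the fit with the library-group term; the cross of Chad, which had 0 counts in posterior library 1, is left out. The 7 genes called lie between 0.61 and 4.91, and the crosses of Col11a2, Col11a1, Acan and Col9a1 lie well below their main values.

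Susd5, which encodes a membrane protein with a sushi domain, had 10, 20 and 3 counts in the anterior libraries and 308, 304 and 467 in the posterior ones. It was at 0.259 to 1.45 CPM against 21.9 to 32.0 CPM, with every posterior library far above every anterior one. The fitted difference was 29.98-fold (log2 4.91, standard error 0.41, adjusted p = 0.000655), the largest among the 27 genes, and was called in all 16 alternatives in which it was tested. The fold rests on 10, 20 and 3 anterior counts, and the log2 value ranged from 4.52 without anterior library 3 to 5.59 without anterior library 2. The other secreted genes of this kind, Cytl1 and Mia, had 1 to 7 counts and at most 1 count per library and were not tested.

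None of the 5 genes of sulfation and glycosaminoglycan synthesis was called by edgeR or limma-voom; 1 in each direction had an unadjusted p below 0.05, and DESeq2 called 1, Chst11, higher in the anterior palate. Chst11, which encodes a chondroitin sulfotransferase, was at 62.7, 60.7 and 60.8 CPM in the anterior and at 37.1, 39.1 and 52.2 CPM in the posterior libraries. The anterior libraries all lay above the posterior ones (log2 -0.52, standard error 0.14, adjusted p = 0.0701), and Chst11 was called in 8 of the 17 alternatives, with adjusted p from 0.0171 to 0.244; with the library-group term it was -0.73 (adjusted p = 0.0257).

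Slc26a2, which encodes the sulfate transporter of chondrocytes, was at 49.5 to 57.3 CPM in the anterior and at 55.2, 71.0 and 74.5 CPM in the posterior libraries (log2 0.33, standard error 0.13, adjusted p = 0.183). Xylt1, whose enzyme starts the glycosaminoglycan chain, was at 15.2 to 17.1 CPM in the anterior and at 14.9, 24.8 and 23.6 CPM in the posterior libraries (log2 0.37, standard error 0.20, adjusted p = 0.288). For both genes posterior library 1 lay close to or within the anterior range. Papss2, which makes the sulfate donor, had a log2 difference of -0.22 (standard error 0.13, adjusted p = 0.328), and Chst3, another chondroitin sulfotransferase gene, one of 0.066 (standard error 0.16, adjusted p = 0.811).

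Averaged over the 6 libraries, Col9a2 had the highest level per kilobase of the 35 genes at 39.1, followed by Col2a1 at 32.0, Col11a1 at 30.1, Sox9 at 14.97 and Pthlh at 12.4. The first 3 ranged over the libraries from 28.8 to 57.4, from 7.31 to 61.8 and from 13.3 to 63.7 CPM per kilobase, so their order over all libraries is within that spread. The order depended on region. Col2a1 stood at 0.254 to 0.332 times Col9a2 in the anterior libraries and at 1.04 to 1.30 times in the posterior ones. Acan was low among the matrix genes, at 0.788 CPM per kilobase, with Col2a1 at 15.4 to 35.8 times Acan in the anterior and 33.7 to 84.3 times in the posterior libraries.

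Other genes of the pathway moved in both directions. Genes of these lists that DESeq2 but not edgeR called are named too, a choice made after their values were seen. The counts of these lists stand beside shares of all genes tested. For edgeR these were 4.87% in the posterior and 2.59% in the anterior direction, and for DESeq2 8.56% and 4.06%. An unadjusted p below 0.05 was reached by 2486 and 1460 of 15673 genes. Of 12 further cartilage genes, 10 were tested and edgeR called 3, all higher in the posterior palate. At an unadjusted p below 0.05 there were 4 in each direction, and DESeq2 called 4 in the posterior and 2 in the anterior direction. Dlk1, which encodes a delta-like membrane protein found on early chondrocytes and on many other embryonic cells, was at 167 to 196 CPM in the anterior and 877 to 1122 CPM in the posterior libraries (log2 2.44, adjusted p = 0.000157). Col27a1, a fibrillar collagen gene of cartilage, had a log2 difference of 0.56 (adjusted p = 0.0261) and Cilp, which encodes cartilage intermediate layer protein, one of 1.27 (adjusted p = 0.0448). The Col27a1 call was lost with the length correction (log2 0.24, adjusted p = 0.175; called in 9 of 17 alternatives, range 0.000216 to 0.267). The Cilp call was lost with the library-group term (log2 1.29, adjusted p = 0.0916; called in 8 of 17, range 0.0114 to 0.180). DESeq2 added Matn2, a matrilin gene, in the posterior direction (edgeR log2 0.68, adjusted p = 0.118). In the anterior direction it called Prg4, the lubricin gene (edgeR log2 -2.04, adjusted p = 0.0850), and Itga10, a collagen receptor gene (edgeR log2 -1.53, adjusted p = 0.108), and neither overlapped between the regions. Over all libraries Prg4 had 196 counts on the strand tested and 991 on the opposite strand. The median of the 10 was 0.17, and 6 of them were above 0.

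Of 11 further hypertrophic genes, many of which osteoblasts also express, edgeR called 1 in each direction, and the median log2 difference was -0.54. At an unadjusted p below 0.05 there were 1 in the posterior and 5 in the anterior direction, and DESeq2 added Runx2 (edgeR log2 -0.63, adjusted p = 0.0925) and Alpl (edgeR log2 -0.92, adjusted p = 0.0902), both higher in the anterior palate. Runx3, a runt factor gene of chondrocyte maturation, was higher in the posterior palate, at 4.58 to 5.22 CPM against 9.01 to 13.9 CPM (log2 1.22, adjusted p = 0.0110; called in 14 of 17 alternatives, adjusted p from 5.96e-05 to 0.0587). Phospho1, a phosphatase gene of mineralising cells, was higher in the anterior palate, at 2.04 to 3.63 CPM against 0.149 to 0.890 CPM (log2 -2.43, adjusted p = 0.0389; called in 10 of 16 alternatives, adjusted p from 0.00283 to 0.150), and its log2 difference was -4.04 with the library-group term. With the library-group term 5 of the 11 were called in the anterior direction, beside 3.21% of all genes in that fit.

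Of 8 further Sox genes and SOX9 cofactors, Barx2 was higher in the posterior palate, at 3.84 to 5.0 CPM against 8.69 to 15.8 CPM (log2 1.34, adjusted p = 0.0287; called in 13 of 17 alternatives, adjusted p from 0.000699 to 0.136). Zfp219, a zinc finger cofactor gene, was higher in the anterior palate, at 73.8 to 84.3 CPM against 53.0 to 62.4 CPM (log2 -0.46, adjusted p = 0.0394), a call lost with the library-group term (log2 -0.33, adjusted p = 0.0930) and made in 8 of 17 alternatives, with adjusted p from 0.00127 to 0.156. edgeR called none of the other 6, which include Sox8 and Sox10. Sox13, at 15.6 to 17.3 CPM in the anterior and 10.7 to 12.3 CPM in the posterior libraries, did not overlap (log2 -0.51, adjusted p = 0.0516) and was called by DESeq2 and in 4 of 17 alternatives in all, with adjusted p from 0.00628 to 0.189. Of 4 joint genes, Bmpr1b, a receptor for GDF5, was higher in the posterior palate, at 4.70 to 5.44 CPM against 11.0 to 17.3 CPM (log2 1.53, adjusted p = 0.005). Nog, which encodes the BMP antagonist noggin, was at 11.1 to 21.4 CPM in the anterior and 4.90 to 9.58 CPM in the posterior libraries, without overlap (log2 -1.28, adjusted p = 0.0527). DESeq2 called it higher in the anterior palate, as did 5 of 17 alternatives in all, with adjusted p from 0.00202 to 0.196. Of 23 further sulfation and glycosaminoglycan genes, edgeR called 2, Chsy3, a chondroitin synthase gene, higher in the posterior palate (log2 1.88, adjusted p = 0.00584) and Chst7 higher in the anterior palate (log2 -0.98, adjusted p = 0.0393), and the median of the 23 was 0.094. The 2 calls stand beside 7.46% of all genes called in either direction. At an unadjusted p below 0.05, 8 of the 23 were higher in the posterior and 4 in the anterior palate. The Chst7 call was lost with the library-group term (log2 -0.90, adjusted p = 0.142) and made in 9 of 17 alternatives, with adjusted p from 0.00949 to 0.174. Chst15, another sulfotransferase gene, was at 87.8 to 102 CPM in the anterior and 42.3 to 71.4 CPM in the posterior libraries (log2 -0.75, adjusted p = 0.0508) and was called in 12 of 17 alternatives, with adjusted p from 0.00246 to 0.180. DESeq2 called 3 of the 23 in the posterior direction, Chpf and Dse besides Chsy3, and 2 in the anterior direction, and limma-voom 1 and 2.

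The 250 bases before the RefSeq start sites (GRCm38.p6) were read for 25 of the 35 genes, in 33 windows. Those of Xylt1, Snorc, Sox9, Comp, Scrg1, Gdf5, Col9a3, Slc26a2, Col2a1 and Trps1 were not analysed here. Windows of Col9a1, Col11a1 and Col11a2 are shown because these chains of the cartilage fibril differed in their pattern over the libraries, and that of Col10a1 as the marker collagen of the hypertrophic stage; only windows that overlap no annotated exon are printed. The search covered ACAAAG with its variant ACAATG, core sequences bound by SOX factors, and the core AGATAA of GATA-type factors, on either strand. Capitals mark the matches.
Col9a1, chr1:24177360-24177609, plus strand: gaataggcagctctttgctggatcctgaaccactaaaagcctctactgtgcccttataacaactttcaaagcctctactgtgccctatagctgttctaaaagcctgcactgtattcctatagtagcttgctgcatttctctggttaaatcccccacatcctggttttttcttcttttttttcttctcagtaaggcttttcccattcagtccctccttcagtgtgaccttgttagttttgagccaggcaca
Col11a1, chr3:114030290-114030539, plus strand: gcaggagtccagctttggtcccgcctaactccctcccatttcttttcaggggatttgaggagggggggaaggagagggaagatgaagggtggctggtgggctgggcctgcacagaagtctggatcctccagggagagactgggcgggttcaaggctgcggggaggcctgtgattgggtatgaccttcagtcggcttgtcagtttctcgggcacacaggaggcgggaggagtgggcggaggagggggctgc
Col11a2, chr17:34038888-34039137, plus strand: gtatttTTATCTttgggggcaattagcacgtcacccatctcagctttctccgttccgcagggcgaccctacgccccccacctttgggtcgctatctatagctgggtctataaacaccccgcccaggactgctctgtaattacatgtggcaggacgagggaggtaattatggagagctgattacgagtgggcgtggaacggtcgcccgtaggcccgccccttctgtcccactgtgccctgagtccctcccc
Col10a1, chr10:34389731-34389980, plus strand: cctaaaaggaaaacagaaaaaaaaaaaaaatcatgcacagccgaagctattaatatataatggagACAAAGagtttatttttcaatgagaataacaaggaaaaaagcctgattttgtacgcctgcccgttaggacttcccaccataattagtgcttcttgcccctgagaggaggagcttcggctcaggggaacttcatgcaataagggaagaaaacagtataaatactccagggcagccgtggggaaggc

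The windows of Col9a1 and Col11a1 held none of these motifs. The Col11a2 window held AGATAA on the minus strand, printed as its reverse complement TTATCT, 244 bases before the start, and the Col10a1 window held ACAAAG on the plus strand, 185 bases before it. A SOX-type core occurred in 24.2% of the 33 cartilage gene windows and in 25.2% of 32817 windows, and AGATAA in 9.09% and 9.99%. The 8 cartilage windows with a SOX-type core belonged to 4 genes, Sox5, Sox6, Col10a1 and Chst3. A match is a description of the letters in the window.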

How the data were processed

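Libraries from the anterior (3) and posterior (3) palate were assigned to groups by their labels. For each, the authors deposited unnormalised gene counts, unstranded and per strand, in the layout of STAR; the submitters' processing notes and the study's methods name HISAT2, StringTie and DESeq2 1.30.1 with mm10. The annotation version is not given in the sources used here. Identifiers without version numbers matched GENCODE M21 for 52073 of 56691 genes (91.9%), and M21 gave symbols and exon lengths. Rows that name no gene (reads mapped to several places, 5.94% to 8.77%, unmapped, 2.71% to 4.65%, without a feature, 5.92% to 8.71%, and ambiguous, 1.84% to 1.99%) stayed out of library sizes.

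Reverse-stranded counts, 18.95 to 23.1 times those of the other strand, entered a quasi-likelihood test in edgeR 4.0.16 (R 4.3.3, TMM, region only) where 3 or more libraries had 10 or more counts, with Benjamini-Hochberg adjustment at 0.05. The standard errors given were derived from that test, as the absolute log2 difference over the square root of its F statistic. Replicates of a region differed by a chi-square per gene of 3.43 to 67.3, above sampling noise. There were 17 alternatives: DESeq2 1.42.0, limma-voom (limma 3.58.1), RLE, library size only, a filter of 10 counts in all libraries, no filter on low counts, unstranded counts, a replicate block, a library-group term, a length correction (lowess span 0.3) without and with that block, and each of the 6 libraries left out. The interval of the Nkx3-2 ratio and floors cover counting error only. Every cartilage gene of the set was named, and, in the further pathway lists, every gene called; cell type marker lists are given by their counts and sums. The genes and lists were chosen with earlier results of these data known.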

Additional observations from a re-analysis of the deposited data

Results flagged for a closer look

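Counts on the strand opposite to Chad and Col10a1, which the comparison does not use, stood above the level over all genes. Chad had 18 forward-strand counts beside 91 reverse-strand counts, a forward share of 16.5% (95% binomial interval, Clopper-Pearson, 10.1% to 24.8%), and 14 of the 18 lay in anterior libraries. Col10a1 had 4 forward-strand counts beside 14 reverse-strand counts, or 22.2% (6.41% to 47.6%), all in posterior libraries. The share over all genes was 4.50%. Chad overlaps Acsf2 and Col10a1 overlaps Nt5dc1 on the opposite strand in GENCODE M21. The reverse-stranded counts of both genes are low, and the part of Acsf2 and Nt5dc1 reads in the forward-strand counts was not tested. No test for a single outlying value was run in groups of 3 libraries.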

How the results depend on the processing

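Of the cartilage genes, 7 were called, and 11 with DESeq2, 12 without the low-count filter, 12 with the library-group term (beside 12.6%, 7.14% and 7.61% of all genes) and 3 to 17 when each library was left out. The posterior count of 7 became 11 without the filter (5.01% of all genes), 10 with DESeq2 and with the library-group term (8.56% and 4.40%) and 3 to 15 with a library left out (2.32% and 25.3%). The anterior count of 0 became 1 with library size only, with DESeq2, without the filter and with the length correction, 2 with the library-group term and with the length correction and block, and 0 to 2 with a library left out; the shares of all genes called in that direction were 3.04%, 4.06%, 2.13%, 3.47%, 3.21% and 2.04% in these fits with all libraries. The 17 came without posterior library 1, when 46.4% of all genes were called, and the 3 without anterior library 2, when 3.23% were; the cause was not tested. The sign turned for Sox6 (-0.14), Ihh (-0.68), Papss2 (0.012), Chst3 (-0.27) and Xylt1 (-0.14) with the library-group term, for Cnmd (0.11) and Chst3 (-0.043) with the length correction and for the same genes with the block added (0.092 and -0.049). With single libraries left out it turned for Sox9 (-0.076 to 0.57), Col11a2 (-2.37 to 0.076), Cnmd (-0.26 to 0.16), Ihh (-0.36 to 0.44) and Chst3 (-0.018 to 0.21). All 7 calls were kept under RLE, library size only, DESeq2, limma-voom, no filter, unstranded counts, the library-group term and the replicate block. With at least 10 counts in every library Nkx3-2 and Susd5 were not tested, and the other 5 were called. The replicate block called 7 cartilage genes, and 829 in place of 1169 genes in all. In their deviations from the region means, same-numbered libraries correlated at -0.053, 0.045 and 0.036. With 3 libraries per region, these values cannot show whether same-numbered libraries came from the same embryos. Depth limits the 8 genes that were not tested, which had 1 to 58 counts in all.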
